A study of Mus musculus with 16 samples.

Results

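Immediate early, heat shock and integrated stress genes were examined in liver neutrophils of mixed bone marrow chimeras, as a group of 40 members among 54532 gene rows of the deposited table. They fall into 3 classes: 24 immediate early genes, 6 heat shock genes and 10 genes of the ATF4 pathway or the unfolded protein response. The members were chosen by gene symbol, and 41 Ensembl identifiers carry one of these symbols because Ddit3 has a pair of them. All 40 members had 10 or more counts in at least 8 of the 16 columns, and 39 passed the low-count filter of the test, the exception being Klf4. The mice were irradiated (about 1000 cGy) wild-type C57BL/6 hosts into which a mixture was injected of 50% wild-type marrow (CD45.1+) and 50% Ifngr1-/- marrow (CD45.2+). After 8 weeks they were given MC38 colon carcinoma cells in the flank, and 1 week later a CD40 agonist, an antibody that activates a costimulatory receptor of immune cells. Liver neutrophils were sorted 2 days after the agonist. Mice 2 to 9 each gave 1 library from wild-type cells (WT) and 1 from cells lacking the ligand-binding chain of the interferon gamma receptor (Ifngr1_KO), so there were 8 libraries per group and every group carried the tumour and the agonist. The comparison asks which transcripts differ when only the neutrophil's own receptor is missing and both genotypes share a liver. Donor marrow, CD45 type and sort gate went with the genotype in every mouse, so loss of the receptor and these differences cannot be told apart. The sources used here give neither age nor sex of the mice.

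Immediate early genes are switched on within minutes of a signal, without new protein synthesis. Many encode transcription factors of the AP-1 (Fos, Jun), EGR and KLF families, and others, such as Dusp1 and Zfp36, shut the signal or its transcripts down again. Heat shock genes encode chaperones that hold or refold unfolded proteins and are driven by heat shock factor 1. The integrated stress response lowers general translation while raising the factor ATF4, which acts on genes such as Ddit3, Trib3 and Chac1. The unfolded protein response of the endoplasmic reticulum works through the factors XBP1 and ATF6 and raises the chaperone encoded by Hspa5.

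Promoter sequences are shown first for the called members that have an entry in the RefSeq promoter table, for the Hspa1a and Hspa1b pair, which counting can hardly separate, and for Hspa5. Each window runs 5′ to 3′ from 250 bases before to 50 bases after a transcription start in build GRCm38.p6, and 35 of the 40 members had one. Capitals mark the motif matches that are named after the sequences. Among the 3 genes called below, Klf10 is named only. The Btg2 window lies at chr1:134079106-134079405 on the minus strand, the Gdf15 window at chr8:70632407-70632706 on the minus strand, the Hspa1a window at chr17:34972107-34972406 on the minus strand, the Hspa1b window at chr17:34959189-34959488 on the minus strand and the Hspa5 window at chr2:34771840-34772139 on the plus strand. These are reference sequences and were not read from the donors of these mice.
Btg2: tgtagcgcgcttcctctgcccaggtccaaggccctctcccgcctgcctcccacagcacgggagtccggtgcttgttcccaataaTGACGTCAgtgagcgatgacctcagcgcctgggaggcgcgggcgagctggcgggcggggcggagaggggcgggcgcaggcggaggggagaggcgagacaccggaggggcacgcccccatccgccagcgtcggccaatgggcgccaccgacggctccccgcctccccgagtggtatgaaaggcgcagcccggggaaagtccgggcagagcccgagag
Gdf15: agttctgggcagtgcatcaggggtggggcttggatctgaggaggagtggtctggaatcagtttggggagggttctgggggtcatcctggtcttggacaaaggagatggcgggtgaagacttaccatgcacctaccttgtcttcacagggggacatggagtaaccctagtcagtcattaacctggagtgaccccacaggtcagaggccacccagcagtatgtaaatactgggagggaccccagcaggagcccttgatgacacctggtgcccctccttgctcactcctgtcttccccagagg
Hspa1a: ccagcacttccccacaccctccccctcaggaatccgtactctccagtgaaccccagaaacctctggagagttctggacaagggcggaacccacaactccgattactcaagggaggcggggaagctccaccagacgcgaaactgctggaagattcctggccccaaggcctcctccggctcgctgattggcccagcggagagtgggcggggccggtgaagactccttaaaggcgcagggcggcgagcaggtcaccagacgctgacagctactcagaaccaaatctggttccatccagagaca
Hspa1b: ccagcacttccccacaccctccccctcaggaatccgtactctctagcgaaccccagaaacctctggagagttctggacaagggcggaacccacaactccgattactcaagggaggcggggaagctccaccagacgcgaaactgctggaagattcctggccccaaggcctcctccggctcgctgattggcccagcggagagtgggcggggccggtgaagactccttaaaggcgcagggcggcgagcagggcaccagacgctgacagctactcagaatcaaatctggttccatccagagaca
Hspa5: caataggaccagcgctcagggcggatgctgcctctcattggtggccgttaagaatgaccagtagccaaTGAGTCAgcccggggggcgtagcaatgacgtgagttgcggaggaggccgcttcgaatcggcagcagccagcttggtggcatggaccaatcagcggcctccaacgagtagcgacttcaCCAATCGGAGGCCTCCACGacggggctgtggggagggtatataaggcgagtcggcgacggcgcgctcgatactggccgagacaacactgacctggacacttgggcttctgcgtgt

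The capitals in the Btg2 window are a cyclic AMP response element (TGACGTCA) at 166 to 159 bases before the start. In the Hspa5 window they are an AP-1 site (TGANTCA) and an ER stress element (CCAAT and, 9 bases on, CCACG), the latter at 65 to 47 bases before the start. The Gdf15 window and both Hspa1 windows held no full match to the searched patterns. Imperfect copies of the motifs and sites outside the windows were not searched, so a promoter without a match may still hold such elements. The Hspa1a and Hspa1b windows matched at 296 of 300 bases. Motifs were searched on both strands in 1 window per member, and in all 32851 windows of the table for comparison. The windows of Atf3 and Dusp1 lie 34706 and 53656 bases from the gene start of the GENCODE annotation, and thus stand for another start than that one. The cyclic AMP response element was in 3 of 35 members (Btg2, Dusp1 and Ppp1r15a) and in 1.79% of all windows. The ATF4 composite site (TGATGNAA) was in 3 (Atf3, Chac1 and Trib3) and in 3.97%. The AP-1 site was in 2 (Ddit3 and Hspa5) and in 7.81%. The heat shock element (GAA, TTC and GAA, each 2 bases apart) was in Hsph1 and in 0.603% of all windows, the ER stress element in Hspa5 and in 0.119%, and the CArG box, bound by serum response factor, in Zfp36 and in 1.63%. The ISRE, an element of interferon-stimulated promoters (GAAA repeated after 2 bases), was in 2, Fosl2 and Ppp1r15a, and in 3.44%. The EGR site (GCGTGGGCG) and the p53 site were in none of the 35 windows, against 0.612% and 0.0731% of all windows.

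The libraries held 12482326 to 21725277 estimated counts, with lower totals in Ifngr1_KO than in WT in 7 of 8 mice. The targeted gene Ifngr1 (chromosome 10, 19591949 to 19610229 in mm10) had lowest, median and highest levels of 228, 309 and 358 CPM in WT and 38.8, 87.9 and 119 CPM in Ifngr1_KO, without overlap (log2 fold change -1.94, adjusted p = 2.5e-04). All 10 neutrophil markers examined, led by S100a8, passed the filter, and their summed level was 36980.2 to 64022 CPM in WT and 32542 to 92960.0 CPM in Ifngr1_KO. Marker lists of other cell types were lower in sum. The hepatocyte list (10 genes, led by Hp) summed to 3738 to 7586 CPM in WT and 3239 to 7007 CPM in Ifngr1_KO, the monocyte list (6, led by Csf1r) to 2155 to 3415 CPM in WT and 1466 to 2619.7 CPM in Ifngr1_KO, the B cell list (6) to 153 to 278 CPM in WT and 62.0 to 81.9 CPM in Ifngr1_KO and the Kupffer cell and macrophage list (9) to 53.3 to 154 CPM in WT and 39.1 to 82.7 CPM in Ifngr1_KO. Each of these 4 sums was lower in Ifngr1_KO in 8 of 8 mice, and of their genes Ly6c2, Ighm and Adgre1 were called lower. The Kupffer cell markers Vsig4, at 0 in every library, Clec4f, Timd4 and Marco had means below 1 CPM. The erythroid list (5 genes) summed to 114 to 638 CPM in WT and 155 to 886 CPM in Ifngr1_KO, and the T and NK cell, endothelial and platelet lists to at most 26.6, 12.8 and 15.3 CPM in any library. The mitochondrial share, the part of counts from mitochondrially encoded mRNAs, was 0.294 to 1.19% in WT and 0.475 to 2.50% in Ifngr1_KO, with the Ifngr1_KO library above its partner in 6 of 8 mice (p = 0.0312, two-sided exact permutation test by sign flips over mice). Without any 1 of mice 3, 5, 6, 7, 8 and 9 that p was 0.0625, a rise that follows from the fewer sign flips left. The highest share was in the Ifngr1_KO library of mouse 7.

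In wild-type cells, measured after sorting, the 6 highest members were all immediate early genes. The part of cell isolation in the levels of the members, and in their spread between libraries, was not tested. On a scale of CPM per kb of exon, which allows genes to be compared, Junb, an AP-1 subunit, and Zfp36, which encodes the mRNA-destabilizing protein tristetraprolin, had median levels over the 8 WT libraries of 2024 and 1982. Fos, the partner of Jun proteins in AP-1, followed at 1086. Nr4a1, an orphan nuclear receptor, had 727, Ier2 705 and Gadd45b, an activator of stress kinase signalling, 691. Junb ran from 131 to 3329 and Zfp36 from 1548 to 2556, so their ranges overlapped. Every Fos library, from 898 up, was above every Nr4a1 library, at most 791, while the other neighbours among these 6 overlapped. The highest gene outside the immediate early class was Txnip, an inhibitor of thioredoxin, at 326. The constitutive chaperone gene Hspa8 had 189.9, while the inducible Hspa1b and Hspa1a had 6.38 and 4.02. Of the ATF4 pathway, Ddit3 (which encodes CHOP) had 58.2, the leucine zipper gene Atf4 40.2 and the pseudokinase gene Trib3 2.11. Jund, Maff, Fosb, Hsph1 and Klf4 had median levels of 1.68, 1.53, 1.06, 0.298 and 0.228. Jun itself had 15.2.

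**Figure D1:**
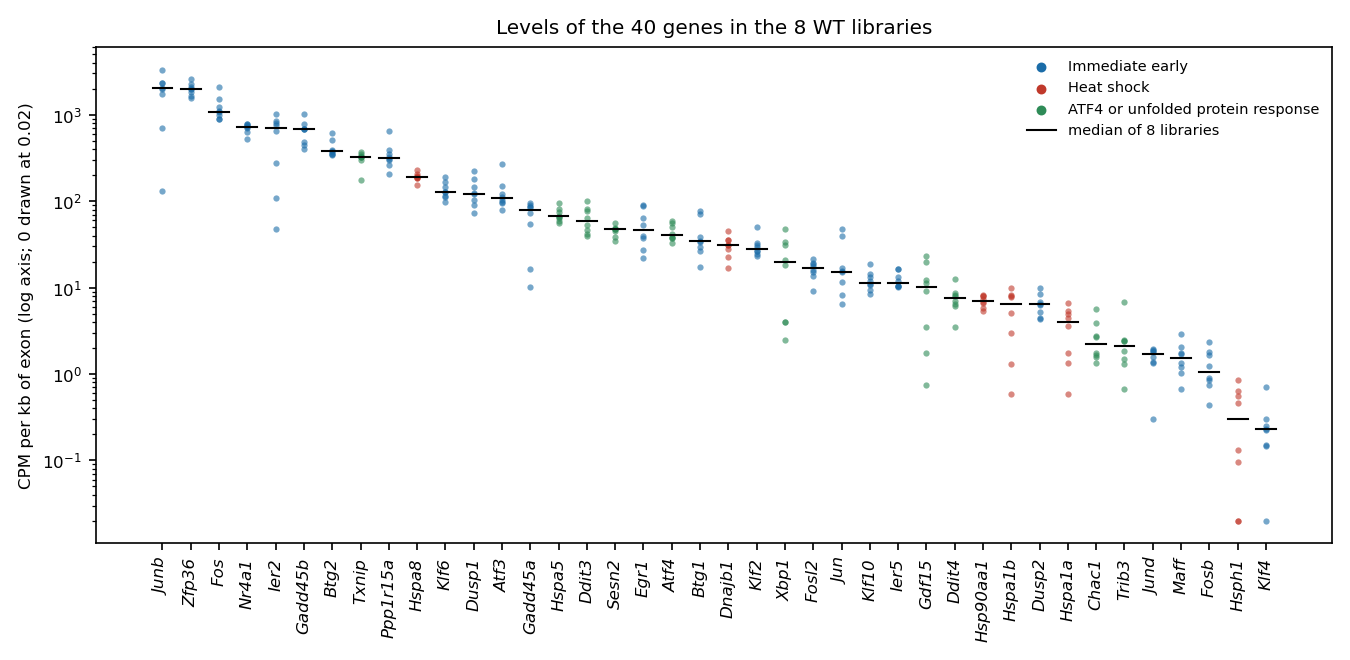
Level of each of the 40 members in the 8 WT libraries, in CPM per kb of exon on a log axis, with 1 point per library, colour for the class and a black line for the median of 8. Junb and Zfp36 have the highest medians, and Junb, Ier2, Gadd45a, Xbp1 and Gdf15 have libraries far below their median.

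The genotype made a difference past the threshold for 3 of the 39 members tested. Btg2, Klf10 and Gdf15 rose in Ifngr1_KO and none fell, by edgeR's quasi-likelihood test blocked by mouse, at a threshold of 0.05 for the p adjusted over 9851 genes. Among all genes tested 0.477% were called higher and 2.32% lower, 2.8% together. In the immediate early class 2 of 23 tested members rose and 21 were not called, with a median log2 fold change of 0.42, beside 0.046 over all genes tested. In the heat shock class none of 6 was called (median -0.25). In the ATF4 and unfolded protein class 1 of 10 rose (median 0.027). At an unadjusted p under 0.05 there were 7 members higher and 4 lower, against 16.3% of all genes in either direction. At a mean of 10 CPM or more there were 10 of 32 members under that p, and 1163 of 4647 genes. No member had groups without overlap, against 1.65% of all genes. The 95% interval of the fold change lay within 2-fold in either direction for 21 of 39 members (53.8%), against 34.8% of all genes. At a mean of 10 CPM or more the shares were 65.6% of members and 64.8% of genes. The 3 called genes were the 3 members that were higher in Ifngr1_KO in 8 of 8 mice, against 2.76% of all genes. In a bulk sample, fewer cells that carry a transcript and less of it per cell cannot be told apart. The labels name no preparation or sequencing batch.

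**Figure D2:**
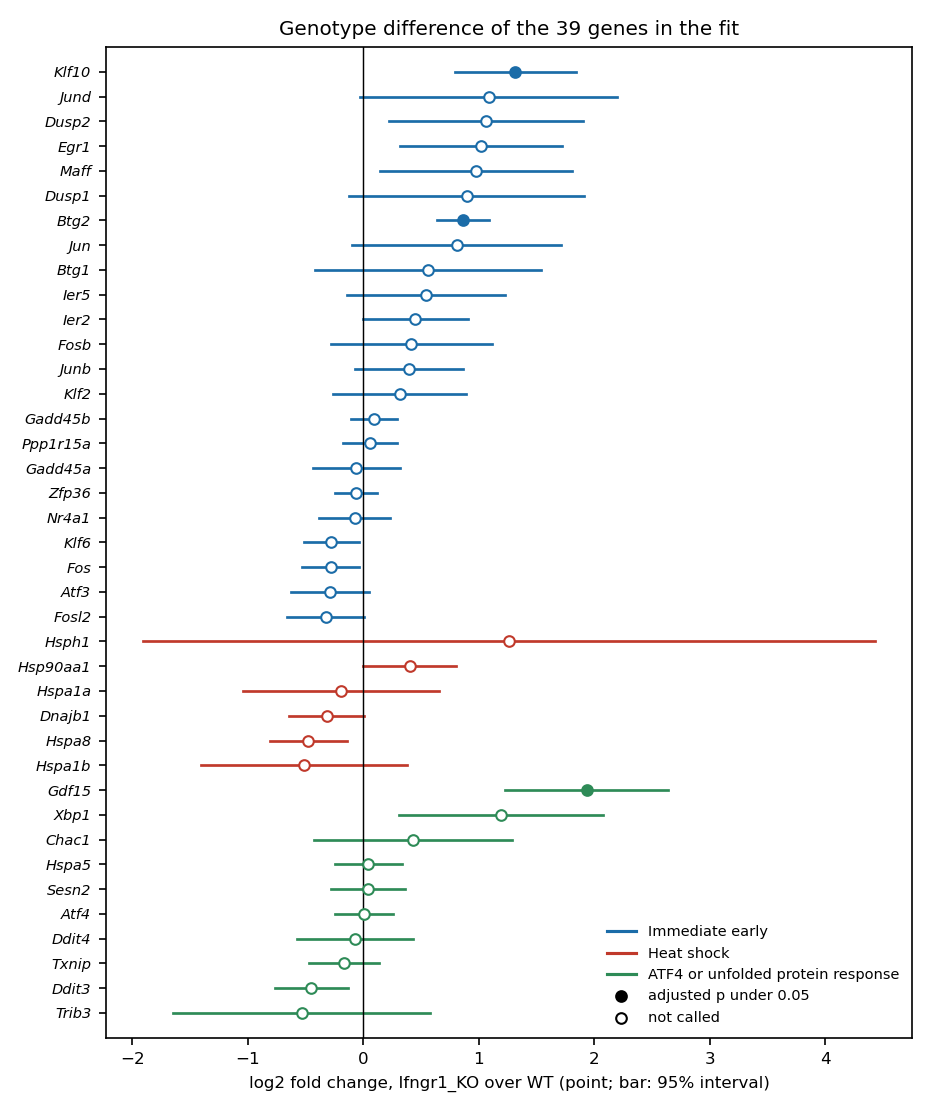
Log2 fold change of Ifngr1_KO over WT for the 39 tested members, with the 95% interval of the edgeR fit as a bar, colour for the class and filled points for an adjusted p under 0.05. Btg2, Klf10 and Gdf15 are the filled points, and the intervals of Hsph1, Jund, Trib3 and Dusp1 are the widest.

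Btg2, an antiproliferative gene and target of p53, rose in every mouse, with the smallest SE of the 3 called genes. In the 8 WT libraries the lowest, median and highest levels of Btg2 were 935, 1031 and 1673 CPM, and in the 8 Ifngr1_KO libraries 1205, 2058 and 2809 CPM. In 7 of 8 Ifngr1_KO libraries Btg2 was above the highest WT library, the exception being mouse 7, which had 969.8 CPM in WT and 1205 CPM in Ifngr1_KO. The log2 fold change was 0.86 (SE 0.10, 95% interval 0.64 to 1.09, adjusted p = 6.9e-04). It stayed called under all 18 alternatives, with values from 0.82 to 1.00. Btg2 lies at chromosome 1, 134075170 to 134079120 in mm10, 3.98 Mb from Ptprc, which encodes CD45 and by which the donors differ. Within 20 Mb of Ptprc, 122 genes were tested, of which 2 (Uchl5 and Btg2) were called higher and 7 lower. These were 1.64% and 5.74% of the window, against 0.477% and 2.32% of all genes tested. For Btg2, donor sequence around this locus and loss of the receptor cannot be told apart. Klf10 and Gdf15 lie on chromosomes 15 and 8, which hold neither Ptprc nor Ifngr1. For them too, donor marrow, CD45 type and sort gate went with the genotype, and the part of these differences was not tested.

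Klf10, a zinc finger factor induced early by TGF-beta, rose by a larger and less even amount. In the 8 WT libraries the lowest, median and highest levels of Klf10 were 35.2, 47.5 and 77.3 CPM, and in the 8 Ifngr1_KO libraries 50.9, 130.2 and 294 CPM. It was above the highest WT library in 6 of 8 Ifngr1_KO libraries, while mice 2 and 4 had the smallest rises, with 39.3 and 50.9 CPM in mouse 2 and 77.3 and 98.7 CPM in mouse 4 (WT and Ifngr1_KO). The log2 fold change was 1.32 (SE 0.24, 95% interval 0.80 to 1.84, adjusted p = 0.0128). The highest library, Ifngr1_KO of mouse 7, was also the one with the highest mitochondrial share. Once the log2 mitochondrial share entered the fit, the log2 fold change of Klf10 was 0.60 (adjusted p = 0.648), and without mouse 7 it was 1.14 (adjusted p = 0.0102). Without mice 5 and 9 together it was 1.20 (adjusted p = 0.133). Over the 18 alternatives its adjusted p ran from 1.5e-06 to 0.648. The part of RNA quality in the Klf10 result was not tested beyond these fits.

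Gdf15, which encodes a cytokine released under stress and is a target of both ATF4 and p53, had the largest fold change of the members. In the 8 WT libraries the lowest, median and highest levels of Gdf15 were 1.38, 18.7 and 42.4 CPM, and in the 8 Ifngr1_KO libraries 4.72, 70.5 and 188 CPM. Levels also differed widely between mice: mouse 5 had 3.24 and 4.72 CPM and mouse 9 had 1.38 and 9.88 CPM (WT and Ifngr1_KO), while mouse 3 had 42.4 and 188 CPM. The groups overlapped, with 6 of 8 Ifngr1_KO libraries above the highest WT library. The log2 fold change was 1.94 (SE 0.32, 95% interval 1.23 to 2.64, adjusted p = 0.00756). Without the mouse block it was 1.93 (adjusted p = 0.162), and once the mitochondrial share entered the fit 2.48 (adjusted p = 0.0823). Without mice 6 and 7 together it was 1.94 (adjusted p = 0.0521), and without mice 5 and 9 together 2.02 (adjusted p = 0.0238). Over its 18 alternatives the adjusted p of Gdf15 ran from 1.4e-08 to 0.162. The summed hepatocyte, monocyte, macrophage and B cell markers moved down in Ifngr1_KO in every mouse. The part of such cells in the results of Btg2, Klf10 and Gdf15 was not tested.

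**Figure D3:**
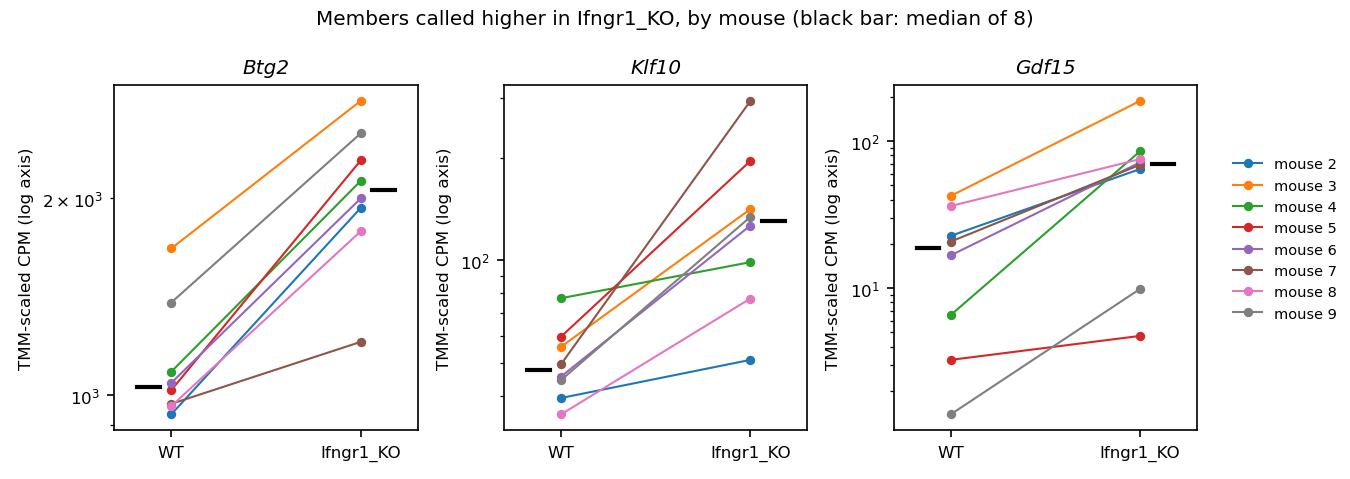
TMM-scaled CPM of Btg2, Klf10 and Gdf15 on log axes, with a line from the WT to the Ifngr1_KO library of each of the 8 mice and a black bar for the median of 8. Every line rises, the lines of Btg2 run nearly parallel except for mouse 7, and Gdf15 has mice 5 and 9 far below the rest.

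The most abundant immediate early genes were not called, and several had narrow intervals. Zfp36 had lowest, median and highest levels of 5372, 6879 and 8870.1 CPM in WT and 5088, 6692 and 7868 CPM in Ifngr1_KO, with a log2 fold change of -0.061 (SE 0.081, 95% interval -0.24 to 0.12, adjusted p = 0.751). Nr4a1 had 1833, 2549.5 and 2775 CPM and 1199.6, 2536 and 3195 CPM, and -0.074 (SE 0.14, 95% interval -0.38 to 0.23, adjusted p = 0.831). The ranges of Zfp36 overlapped for the most part, with 2 WT libraries above and 1 Ifngr1_KO library below the other group. For Nr4a1 the Ifngr1_KO libraries spread wider than WT, with 4 above the highest and 2 below the lowest WT library. Gadd45b and Ppp1r15a, the latter encoding the phosphatase subunit that ends the integrated stress response, had intervals of -0.11 to 0.30 and -0.18 to 0.29.

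Fos was the only member below its WT partner in all 8 mice. In the 8 WT libraries the lowest, median and highest levels of Fos were 2113, 2555 and 4864 CPM, and in the 8 Ifngr1_KO libraries 1263, 2245 and 4254 CPM. The ranges overlapped widely, and mouse 3 had the highest level in both genotypes. Mouse 7 had the largest difference, from 2539.6 CPM in WT to 1263 CPM in Ifngr1_KO. The log2 fold change of Fos was -0.28 (SE 0.11, 95% interval -0.53 to -0.035, adjusted p = 0.238), and without mouse 7 it was -0.18 (adjusted p = 0.0820, the lowest of 18 alternatives, which ran up to 0.9997). Junb had 303, 4658 and 7660.2 CPM in WT and 1057, 4999.6 and 8360.3 CPM in Ifngr1_KO, was higher in Ifngr1_KO in 6 of 8 mice and had a log2 fold change of 0.40 (SE 0.21, 95% interval -0.067 to 0.86, adjusted p = 0.377). In mouse 9 both Junb levels were the lowest of their group. Klf6, a zinc finger factor, Atf3, a stress-induced repressor, and Fosl2, an AP-1 subunit, were each lower in Ifngr1_KO in 7 of 8 mice, with log2 fold changes of -0.27 (adjusted p = 0.241), -0.29 (adjusted p = 0.387) and -0.32 (adjusted p = 0.323).

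Egr1, Dusp1, Btg1 and Jun had their highest level of all in the same library, Ifngr1_KO of mouse 6. So did Xbp1, described below, which made 5 of 39 members (12.8%), against 7.14% of all genes. Egr1, a zinc finger factor, had lowest, median and highest levels of 98.6, 209 and 404 CPM in WT and 162, 401 and 1564 CPM in Ifngr1_KO. It was higher in Ifngr1_KO in 7 of 8 mice, with a log2 fold change of 1.02 (SE 0.32, 95% interval 0.32 to 1.72, adjusted p = 0.135). Dusp1, which encodes a phosphatase of MAP kinases, reached 5062 CPM in that library against 338 CPM in the WT library of the same mouse. Over the other 7 mice its Ifngr1_KO levels ran from 351 to 1511 CPM. The antiproliferative gene Btg1 had 1919 against 183 CPM and Jun, the core AP-1 subunit, 531 against 53.7 CPM in mouse 6. These 3 genes were higher in Ifngr1_KO in 5 of 8 mice and lower in mice 2, 5 and 8. Their log2 fold changes were 0.90 (adjusted p = 0.362), 0.56 (adjusted p = 0.563) and 0.81 (adjusted p = 0.357). Without mice 6 and 7 together, Egr1 had 0.72 (adjusted p = 0.215) and Dusp1 0.32 (adjusted p = 0.698). DESeq2 in place of edgeR called Egr1 at an adjusted p of 0.0110, the lowest of its 18 alternatives, which ran up to 0.620. DESeq2 also called Dusp2, described next.

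Other immediate early genes peaked in the Ifngr1_KO library of mouse 7, though a smaller share of the members than of all genes did so. Dusp2, a nuclear MAP kinase phosphatase gene, had lowest, median and highest levels of 8.72, 12.8 and 20.0 CPM in WT and 9.62, 23.4 and 154 CPM in Ifngr1_KO, and was higher in Ifngr1_KO in 7 of 8 mice (log2 fold change 1.07, SE 0.38, 95% interval 0.22 to 1.91, adjusted p = 0.189). Jund, an AP-1 subunit gene without introns, had 0.502, 2.81 and 3.28 CPM and 2.56, 3.17 and 35.9 CPM (log2 fold change 1.09, SE 0.50, 95% interval -0.026 to 2.20, adjusted p = 0.317). Its lowest library, WT of mouse 9, held 8 counts. Ier5 had 299 CPM in Ifngr1_KO of mouse 7 against at most 77.2 CPM in the other Ifngr1_KO libraries. Klf2, a KLF factor of quiescent leukocytes and endothelium, had 255 against at most 85.2 CPM. Maff, a small Maf factor, had 21.4 against at most 12.9 CPM. This library had a mitochondrial share of 2.50%, and 23.9% of all genes tested had their highest level in it, against 7 of 39 members (17.9%). With the mitochondrial share in the fit the log2 fold changes were 0.31 for Dusp2, 0.13 for Jund, 0.013 for Ier5 and -0.16 for Klf2, and none of the 4 was called (adjusted p 0.9997 to 0.9998).

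Of the remaining immediate early members, Ier2 had a log2 fold change of 0.45 (adjusted p = 0.308), Fosb 0.42 (adjusted p = 0.548) and Gadd45a -0.06 (adjusted p = 0.893). Klf4 was at 0 to 2.14 CPM in WT and 0 to 1.32 CPM in Ifngr1_KO, and failed the main filter. With the filter of 10 counts in 8 columns its log2 fold change was -1.20 (adjusted p = 0.683).

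**Figure D4:**
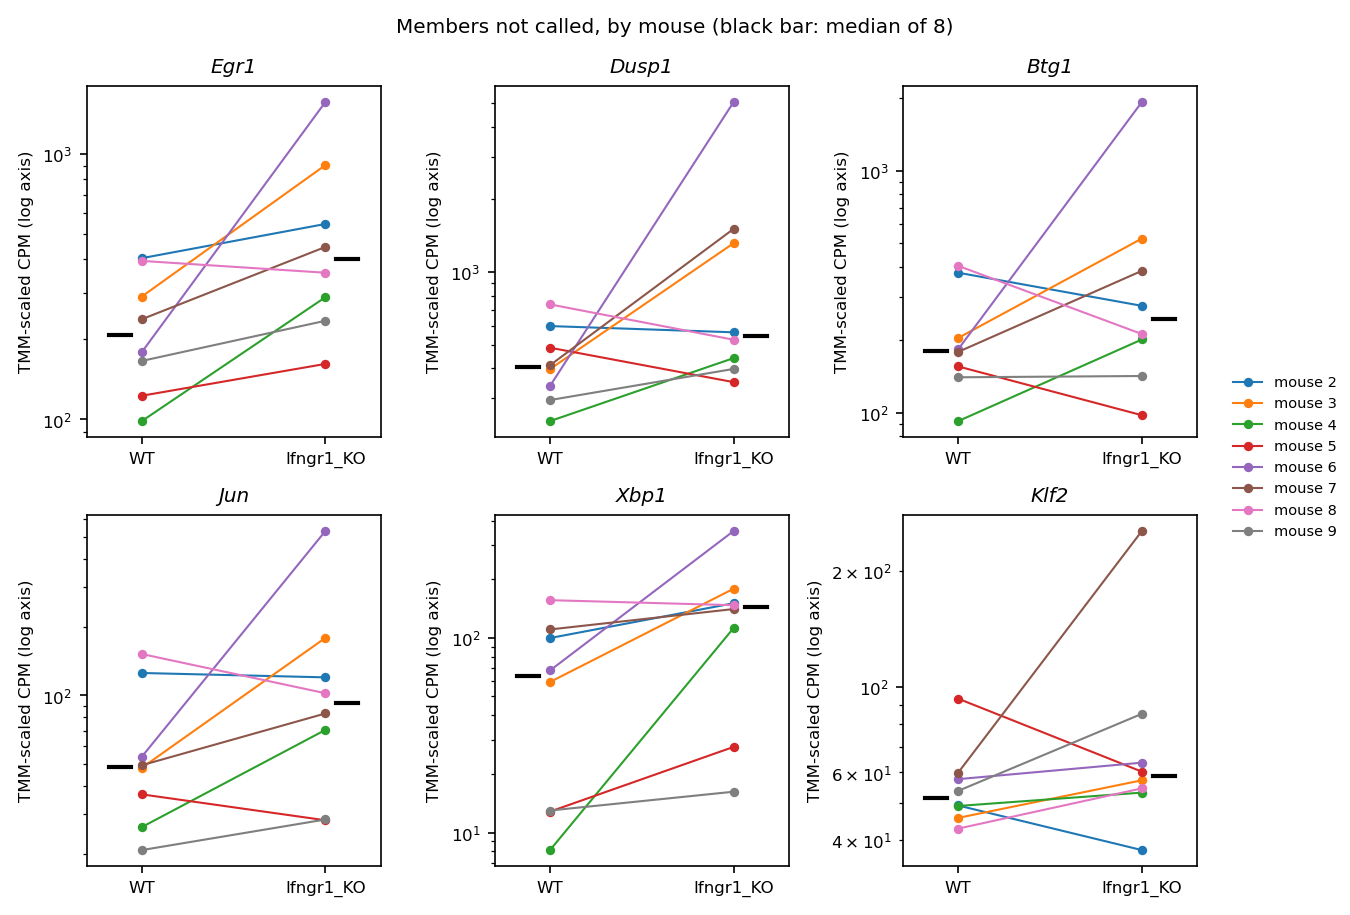
TMM-scaled CPM of Egr1, Dusp1, Btg1, Jun, Xbp1 and Klf2, none of them called, on log axes with 1 line per mouse from WT to Ifngr1_KO and a black bar for the median of 8. Mouse 6 has the highest Ifngr1_KO level of the first 5 genes, and mouse 7 that of Klf2.

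None of the 6 heat shock genes was called, and 4 had fold change estimates below 0 and 2 above. Hspa8, the constitutive cytosolic HSP70, was the most abundant. In the 8 WT libraries the lowest, median and highest levels of Hspa8 were 654, 817 and 991 CPM, and in the 8 Ifngr1_KO libraries 286, 647 and 769 CPM. In 7 of 8 mice the WT library was above the highest Ifngr1_KO library, and the log2 fold change was -0.47 (SE 0.15, 95% interval -0.81 to -0.14, adjusted p = 0.146). The Ifngr1_KO library of mouse 7 held the lowest level, and without that mouse the log2 fold change was -0.33 (adjusted p = 0.0613). With limma-voom and library weights Hspa8 was called at an adjusted p of 0.0491, the lowest of 18 alternatives, which ran up to 0.9997. Dnajb1, the HSP40 partner of HSP70, had 53.3, 99.5 and 145 CPM in WT and 58.5, 74.5 and 105 CPM in Ifngr1_KO (-0.31, SE 0.15, 95% interval -0.64 to 0.0089, adjusted p = 0.318). The groups of Dnajb1 overlapped, and 3 WT libraries exceeded every Ifngr1_KO library.

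The inducible genes Hspa1a and Hspa1b, whose windows are printed above, share most of their sequence, so the split of reads between them is uncertain. Hspa1a had 1.76, 11.9 and 19.7 CPM in WT and 3.05, 9.96 and 12.4 CPM in Ifngr1_KO, with a log2 fold change of -0.19 (adjusted p = 0.841). Hspa1b had 1.63, 17.9 and 27.4 CPM and 2.29, 9.10 and 24.0 CPM, with -0.51 (adjusted p = 0.567). Summed as 1 feature, an analysis added after seeing the data, the pair had 3.39, 30.3 and 42.4 CPM in WT and 5.34, 20.6 and 35.1 CPM in Ifngr1_KO. The log2 fold change of the sum was -0.33 (95% interval -1.11 to 0.44, adjusted p = 0.674), so a fall of 2-fold was not resolved at this spread. Hsp90aa1, the inducible cytosolic HSP90, had 21.3, 27.7 and 32.7 CPM and 23.5, 34.6 and 61.5 CPM and a log2 fold change of 0.40 (SE 0.18, 95% interval -0.0028 to 0.81, adjusted p = 0.308). Hsph1, an HSP110 that exchanges the nucleotide of HSP70, was at 0 to 6.20 CPM in WT and 0 to 7.64 CPM in Ifngr1_KO, and its interval of -1.91 to 4.44 left the direction unresolved.

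Apart from Gdf15, the genes of the ATF4 pathway and the unfolded protein response were not called. Atf4 itself had lowest, median and highest levels of 77.1, 94.9 and 137 CPM in WT and 74.0, 108 and 146 CPM in Ifngr1_KO, with a log2 fold change of 0.0094 (SE 0.11, 95% interval -0.24 to 0.26, adjusted p = 0.978). Its ranges overlapped nearly completely. Ddit3 had 67.8, 99.7 and 169.9 CPM and 53.7, 69.5 and 114 CPM, was lower in Ifngr1_KO in 7 of 8 mice and had -0.45 (SE 0.14, 95% interval -0.76 to -0.13, adjusted p = 0.145). Mouse 7 was the exception, with 78.7 CPM in WT and 96.7 CPM in Ifngr1_KO. Without mouse 7 the log2 fold change of Ddit3 was -0.55 (adjusted p = 0.0197). Limma-voom with library weights and DESeq2 also called it, at adjusted p of 0.0241 and 0.0332, and its other 15 alternatives reached up to 0.677. The second Ddit3 identifier, ENSMUSG00000116429, had a mean of 1.34 CPM and overlaps the main gene.

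Xbp1, the factor activated by unconventional splicing in the unfolded protein response, had one of the widest ranges. In the 8 WT libraries the lowest, median and highest levels of Xbp1 were 8.13, 63.7 and 156 CPM, and in the 8 Ifngr1_KO libraries 16.2, 144 and 354 CPM. In mouse 4 it had 8.13 CPM in WT and 112 CPM in Ifngr1_KO, and in mouse 8 156 and 147 CPM. It was higher in Ifngr1_KO in 7 of 8 mice, with a log2 fold change of 1.20 (SE 0.40, 95% interval 0.31 to 2.08, adjusted p = 0.159), and DESeq2 called it (adjusted p = 0.0133). Counts per gene do not separate its spliced form. Hspa5, the endoplasmic reticulum chaperone whose window holds the ER stress element, had 236, 282 and 398 CPM and 161, 310.2 and 414 CPM (log2 fold change 0.044, SE 0.13, 95% interval -0.25 to 0.33, adjusted p = 0.897). Sesn2, a sestrin that restrains mTORC1, had 119, 164 and 196 CPM and 95.8, 172 and 197 CPM (0.044, SE 0.15, 95% interval -0.28 to 0.37, adjusted p = 0.908). Txnip had 556, 1017 and 1159 CPM and 639, 864 and 1061 CPM (-0.16, SE 0.14, 95% interval -0.47 to 0.14, adjusted p = 0.587). For Hspa5, Sesn2 and Txnip the groups overlapped and the intervals excluded a 1.5-fold change in either direction. Trib3 had 1.41, 4.47 and 14.5 CPM and 0.339, 4.11 and 7.86 CPM (-0.53, SE 0.50, 95% interval -1.64 to 0.58, adjusted p = 0.634), with the lowest level of all in Ifngr1_KO of mouse 7. Chac1, which degrades glutathione, and Ddit4, an inhibitor of mTORC1, had intervals of -0.42 to 1.29 and -0.57 to 0.43.

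Several members varied widely among libraries of the same genotype. Each mouse gave a single library per genotype, so this spread does not separate the mouse from the library. The SD of log2 levels among WT libraries was 1.63 for Ier2, against a median of 0.26 for the 283 genes within 2-fold of its mean level. It was 1.63 for Xbp1 against 0.30, 1.62 for Gdf15 against 0.37 and 1.51 for Junb against 0.27. Zfp36, by contrast, had 0.24 against 0.27. In WT 26 of 39 members, and in Ifngr1_KO 24 of 39, exceeded the median SD of genes at their level.

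Mice 5 and 9 were low for Junb, Ier2 and Gadd45a in both genotypes. Junb had 303 to 2667 CPM in their 4 libraries and 3751 to 8360.3 CPM in the other 12. Ier2 had 72.6 to 216 against 418 to 1856 CPM. The growth arrest gene Gadd45a had 17.8 to 40.3 against 83.0 to 169 CPM. Neither range touched the other for these 3 genes. Medians in the 4 libraries and the other 12 were 3.98 and 53.6 CPM for Gdf15, 14.6 and 127 CPM for Xbp1 and 2.86 and 17.3 CPM for Hspa1b. Those of Zfp36, 7450.1 and 6355 CPM, and of Fos, 2959.6 and 2245 CPM, were not lower. The WT library of mouse 4 was low for Ier2 (418 CPM), Xbp1 and Gdf15, while its Ifngr1_KO partner was not. Of the 9851 genes tested, 270 had all 4 libraries of mice 5 and 9 below the other 12, and 3 had them all above.

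Mouse 3 stood at the other end. Its WT library held the highest level of all 16 for 8 of the 39 members and its Ifngr1_KO library for 8 others, against 7.92% and 5.02% of all genes. Among them, Atf3 had 576 CPM in WT and 477 CPM in Ifngr1_KO of mouse 3, and Ppp1r15a 1906 and 1609.5 CPM. Medians of Atf3 were 233 CPM in WT and 192 CPM in Ifngr1_KO.

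**Figure D5:**
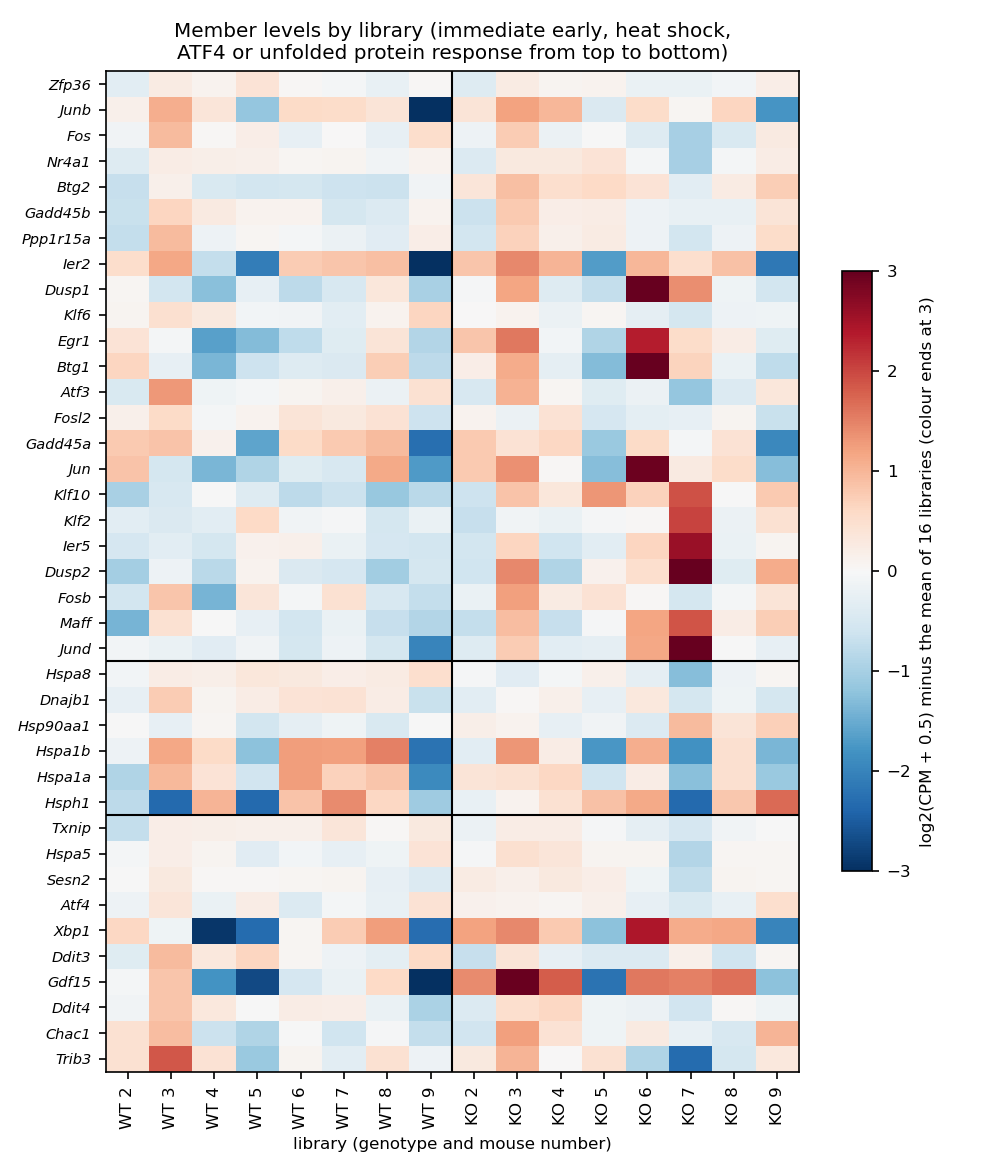
Level of each of the 39 tested members in each of the 16 libraries, as log2(CPM + 0.5) minus the member's mean over the 16, with red above and blue below and colour ending at 3. Blue cells recur in the WT and Ifngr1_KO columns of mice 5 and 9, and red cells in those of mouse 3 and in the Ifngr1_KO columns of mice 6 and 7.

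Other genes of the same pathways were counted from fixed lists, beside 0.477% of all genes tested called higher and 2.32% called lower. Of 34 tested immediate early genes outside the 40, 2 rose and none fell, with a median log2 fold change of 0.22. They were Ier3, which modulates survival, with 1379, 1743 and 2369 CPM in WT and 1867, 2943 and 3545 CPM in Ifngr1_KO and a log2 fold change of 0.60 (SE 0.10, 95% interval 0.38 to 0.83, adjusted p = 0.00800), and Elk3, an ETS partner of serum response factor, with 0.581, 3.09 and 7.74 CPM and 2.65, 9.86 and 14.4 CPM (1.51, SE 0.33, 95% interval 0.79 to 2.23, adjusted p = 0.0334). Both were higher in 8 of 8 mice. The call of Elk3 was lost without any 1 of mice 2, 3, 4, 6, 7 and 8 (adjusted p of 0.0525 to 0.100). None of 27 other heat shock genes was called by edgeR, and 6 had an unadjusted p under 0.05, against 16.3% of all genes. DESeq2 called 3 of the 27 and limma-voom 2. The most abundant, the HSP90 gene Hsp90ab1 and the HSP40 gene Dnaja1, had log2 fold changes of -0.26 (adjusted p = 0.430) and 0.017 (adjusted p = 0.966).

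Of 42 other genes of the ATF4 pathway and the unfolded protein response, 2 fell and none rose, with a median log2 fold change of 0.18. Over all genes tested 2.32% were called lower and 0.477% higher. At a mean of 10 CPM or more, 206 of 4647 genes were called lower. Wars, the tryptophanyl-tRNA synthetase gene, which interferon gamma is also known to induce, fell in 8 of 8 mice without overlap. Its lowest, median and highest levels were 27.3, 41.7 and 57.8 CPM in WT and 3.34, 9.92 and 24.5 CPM in Ifngr1_KO, a log2 fold change of -2.14 (SE 0.32, 95% interval -2.85 to -1.42, adjusted p = 0.00468). Nupr1, a stress-induced chromatin protein, had 93.9, 107 and 158 CPM and 50.5, 58.9 and 105 CPM and was lower in 8 of 8 mice (-0.81, SE 0.13, 95% interval -1.10 to -0.52, adjusted p = 0.00677). Its highest Ifngr1_KO library, mouse 7, lay within the WT range. The seryl-tRNA synthetase gene Sars, named after its value was seen, was not called, at 0.37 (adjusted p = 0.340). With the mitochondrial share in the fit Wars had -2.09 (adjusted p = 0.280) and Nupr1 -0.96 (adjusted p = 0.114). Without mice 5 and 9 together, Wars, Nupr1 and Ier3 had -2.07, -0.76 and 0.57, with adjusted p of 0.0666, 0.0718 and 0.0811.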

How the data were processed

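Per the labels' protocols, cDNA of the 16 libraries was primed with oligo-dT and amplified before a Nextera preparation. Reads carry neither strand nor a molecular identifier, so counts include PCR copies. The intervals rest on the spread of the within-mouse difference over these mice only, which does not separate mouse from library. The authors deposited whole-number estimated counts per Ensembl gene, 1 column per library, with no scaling. Salmon 0.14.2, DESeq2 1.22.1 and build mm10 are named in the submitters' processing notes. Which tool did what, the annotation and any filter: not given in the sources used here. Names and 1-based positions came from GENCODE for the same build, and 37 of 54532 identifiers had none there. Promoter windows came from RefSeq, and the matches of a further motif are not reported here.

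The fit used edgeR 4.0.16 in R 4.3.3. The filterByExpr filter kept 9851 genes (99.7% of counts), TMM scaled the libraries, and a robust quasi-likelihood test of genotype was blocked by mouse, with Benjamini-Hochberg adjustment over all genes and a threshold of 0.05. Each SE is the absolute log2 fold change over the square root of F, and 95% intervals use the total degrees of freedom. CPM values use TMM-scaled library sizes, and log2 values for spread add 0.5. Levels per kb divide by the merged exon length. The block rests on the design text, by which libraries of 1 number come from 1 mouse. Across genes, deviations from the group means correlated at a mean of 0.160 within mice (0.0320 to 0.383) and -0.0211 between mice. Centring on the group means pushes the between-mouse mean below 0 when the within-mouse mean is above 0. The between-mouse value thus adds no separate evidence for the pairing. In 4 of 8 mice the WT library correlated best with its own Ifngr1_KO partner.

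The members and lists were chosen with earlier results of these data known, so no p-value was adjusted over a list and no list was tested. Full values were given for Ifngr1, the called members, the 4 most abundant and the 3 most changed uncalled members of each class, and Atf4, Ddit3, Xbp1, Hspa1a and Hspa1b. Up to 4 called genes per other list, or the 2 most abundant where none was called, were named as well. Alternatives were no mouse block, other scalings and filters, DESeq2 1.42.0, limma-voom (limma 3.58.1) with library weights, the mitochondrial share as a covariate and each mouse left out. Leaving out mice 6 and 7 or mice 5 and 9 together, and summing Hspa1a and Hspa1b, were added after seeing the data, as was a list of p53 targets. The test was tried on simulated counts before use.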

Additional observations from a re-analysis of the deposited data

Results flagged for a closer look

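Within each group of 8 libraries, single libraries far from the others were sought in log2 levels of named genes and in the mitochondrial share. The rule was a Dixon ratio above 0.526, the gap to the next library over the full range. Of 62 such checks, 9 stood out. The nominal rate of about 1 in 20 holds for independent checks, and these share the same libraries, so no excess is claimed. Of the 9, 5 were the Ifngr1_KO library of mouse 7. It was high for Jund at 35.9 CPM (next highest 8.35 CPM) and for Nupr1 at 105 CPM (next 69.3 CPM). It was low for Hspa8 at 286 CPM (next lowest 552 CPM), for Hspa5 at 161 CPM (next 288 CPM) and for Sesn2 at 95.8 CPM (next 146 CPM). In WT, Jund was low in mouse 9 at 0.502 CPM (next 2.25 CPM), Txnip was low in mouse 2 at 556 CPM (next 926 CPM), and Nupr1 was high in mouse 5 at 158 CPM (next 117 CPM). The mitochondrial share of WT libraries was high in mouse 4, at 1.19% (next 0.66%).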

How the results depend on the processing

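Btg2 was called under every alternative run, and Klf10 and Gdf15 under all but 2 and 3 of 18, whose values stand beside their results. Without the mouse block, 2 members were called higher, none of them in the ATF4 class (0 in place of 1), as Gdf15 went to an adjusted p of 0.162; 216 genes were lower and 52 higher in all, and 1 other immediate early gene was called in place of 2. Library totals moved the median over all genes (log2) from 0.046 to 0.16 and the split of calls from 229 lower and 47 higher to 164 and 102, called the same 3 members, and called 4 other immediate early genes. With no filter 31 genes were higher and 1 other immediate early gene was called. DESeq2 called 572 genes lower and 488 higher, 6 members higher (4 immediate early and 2 of the ATF4 class) and 1 lower, of the ATF4 class; of the other immediate early, heat shock and ATF4 lists it called 9, 3 and 4 genes. Limma-voom called 432 lower and 178 higher, 2 members lower (1 heat shock, 1 of the ATF4 class), 6 other immediate early and 2 other heat shock genes. With the mitochondrial share 65 genes were lower and 4 higher, 1 member was higher (1 immediate early, 0 of the ATF4 class), and the other immediate early and ATF4 lists had 0 calls. This covariate differs between genotypes and overlaps with the tested term; the cause of these shifts was not tested.

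With 1 mouse left out, fewer pairs were tested, and genes called lower ranged from 144 (without mouse 3 or 8) to 334 (without mouse 7; 145 and 152 without mice 6 and 9), and genes called higher from 19 (without mouse 3) to 78 (without mouse 7; 24, 26 and 22 without mice 6, 8 and 9). The members called higher were Btg2, Klf10 and Gdf15 each time. Members called lower ranged from 0 to 1, Ddit3 without mouse 7, as did those of the ATF4 class. Other immediate early genes called ranged from 1 (without mouse 2, 3, 4, 6 or 8) to 2, other heat shock genes from 0 to 1 (without mouse 7) and other ATF4 genes from 2 to 3. The mean difference in mitochondrial share ran from 0.628 to 0.940 percentage points with 1 mouse left out. Its exact permutation p was 0.0625 without mouse 3, 5, 6, 7, 8 or 9, where the fewer sign flips left raise it. Genes at a few CPM, such as Hsph1, Klf4 and Jund, rest on few counts per library.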

Other observations

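Because Btg2 and Gdf15 are known targets of p53, other p53 targets were counted from a list chosen after these values were seen. Of 24 genes, 17 were tested, none was called higher and 1 was called lower, Plk2, a polo-like kinase gene, with a log2 fold change of -0.85 (adjusted p = 0.0182). Of the 17, 9 had estimates above 0 and 8 below, and 7 had an unadjusted p under 0.05 (4 higher, 3 lower), against 16.3% of all genes. Over all genes tested 0.477% were called higher and 2.32% lower. Cdkn1a, the cell cycle inhibitor p21, had median levels of 37.2 CPM in WT and 57.1 CPM in Ifngr1_KO and 0.68 (adjusted p = 0.0627). Bax, which permeabilizes mitochondria, had 154 and 214 CPM and 0.65 (adjusted p = 0.119), and was higher in 8 of 8 mice. Plk3, also counted in the other immediate early list, had 1.10 (adjusted p = 0.105), and Rrm2b 1.07 (adjusted p = 0.108). Besides Plk2, the lower genes at that unadjusted p were Trp53inp1 at -0.53 (adjusted p = 0.289) and Xpc at -0.40 (adjusted p = 0.195). Mdm2, the p53 inhibitor, had -0.21 (adjusted p = 0.445), and Trp53 itself -0.13 (adjusted p = 0.716). The part of p53 in the results of Btg2 and Gdf15 was not tested.

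The 270 genes with all 4 libraries of mice 5 and 9 below the other 12 included 259 coding genes, of which 5.41% have an annotated coding transcript without introns, as Junb and Ier2 do. Over the coding genes tested this share was 2.61%. Median exon length was 3577 bp for the 270 and 4013 bp for all genes tested. These mice were set apart after their levels were seen, and Junb, Ier2 and Gadd45a are themselves among the 270. No other pair of mice was compared, and the cause was not tested. The labels name nothing that sets these mice apart.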
